A study of Homo sapiens with 30 samples.

Results

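Antibodies to one histone mark were set against each other: Active Motif 39133, used at a dilution of 1/100, and Diagenode C15410196, used at 1/50. Both are raised against H3K27ac, acetylation of lysine 27 on histone H3, and the comparison used 4 libraries of each antibody, 8 of the 30 in the series. All were untreated K562 cells, an established cell line from a human chronic myeloid leukaemia, profiled by CUT&Tag with 500000 cells per experiment. The 4 libraries of an antibody were prepared with SDS or column extraction of DNA, each at 11 and at 13 PCR cycles, so that every Active Motif library had a Diagenode library made in the same way. The labels give 1 library per condition and do not say whether the libraries came from separate cultures, so a p-value here measures only the spread among conditions. Antibody and dilution changed together and cannot be told apart.

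Acetyl groups on lysine 27 of histone H3 are placed by the acetyltransferases p300 and CBP at active promoters and enhancers, and removed by histone deacetylases. The same lysine can instead be trimethylated by Polycomb repressive complex 2, giving H3K27me3, a mark of silent developmental genes, and one lysine cannot carry both marks. In CUT&Tag the antibody recruits a protein A-Tn5 transposase that cuts and tags nearby DNA, so that peaks follow the antibody, while open chromatin and mitochondrial DNA can be tagged without it.

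Members were chosen from the SEACR peak lists that the authors called after downsampling, on chromosomes 1 to 22 and X. SEACR is a peak caller that ranks blocks of continuous signal, and the coordinates are on hg19. Overlapping peaks of the 8 lists were merged into 14140 regions. A region was called Active Motif only when it was in at least 3 Active Motif lists and no Diagenode list, and Diagenode only in the mirror case. This gave 95 Active Motif only regions, 0.672% of all regions, and 118 Diagenode only regions, 0.835%. Another 1669 regions were in at least 3 lists of each antibody and are called shared.

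Peak number did not differ detectably between the antibodies. Active Motif gave 3957 peaks with SDS at 11 cycles, 7191 with column at 11 cycles, 6070 with SDS at 13 cycles and 3896 with column at 13 cycles. In the same order of protocols, Diagenode gave 4008, 6336, 6956 and 3761 peaks. The column list at 11 cycles and the SDS list at 13 cycles were the larger lists of both antibodies, and the ranges of the antibodies overlapped almost fully. The difference in mean log2 peak number, Active Motif minus Diagenode, was 0.0046 (exact two-sided permutation test over libraries, p = 0.971, n = 4 each). With 4 libraries against 4 the smallest p this test can give is 0.0286, and the p-values of the 7 tests between the antibodies were adjusted together by the Benjamini-Hochberg method.

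Peaks covered 4.05, 8.50, 4.84 and 3.58 Mb in the Active Motif lists and 4.45, 7.16, 8.41 and 3.39 Mb in the Diagenode lists, in the same order of protocols. The Active Motif SDS list at 13 cycles covered 0.576 times the length of its Diagenode partner, the widest gap among the 4 matched pairs. Median peak width was 907, 1034, 714 and 821.5 bp with Active Motif and 988, 995, 1051.5 and 799 bp with Diagenode. Neither measure separated the antibodies: the log2 difference was -0.15 for covered length (exact permutation p = 0.80, adjusted p = 0.971) and -0.15 for median width (exact permutation p = 0.343, adjusted p = 0.971). With SDS both Active Motif lists had narrower peaks than their Diagenode partners, and with column both had slightly wider ones.

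Mitochondrial DNA carries no histones, so signal on chrM is tagging without the mark. In each of the 8 lists chrM was 1 single peak. It held 32.8%, 30.1%, 53.9% and 51.8% of the summed peak signal in the Active Motif lists and 40.4%, 45.7%, 37.3% and 60.1% in the Diagenode lists. The share averaged 42.1% ± 12.4 with Active Motif and 45.9% ± 10.1 with Diagenode (SD, n = 4 each), a difference of -3.74 percentage points that lay within the spread between libraries (exact permutation p = 0.657, adjusted p = 0.971). Active Motif had the lower share in 3 of the 4 matched pairs, all but SDS at 13 cycles. Within one protocol factor the difference took either sign, at -11.6 points within 11 cycles and 4.15 within 13 cycles, and 4.47 within SDS and -12.0 within column.

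**Figure D1:**
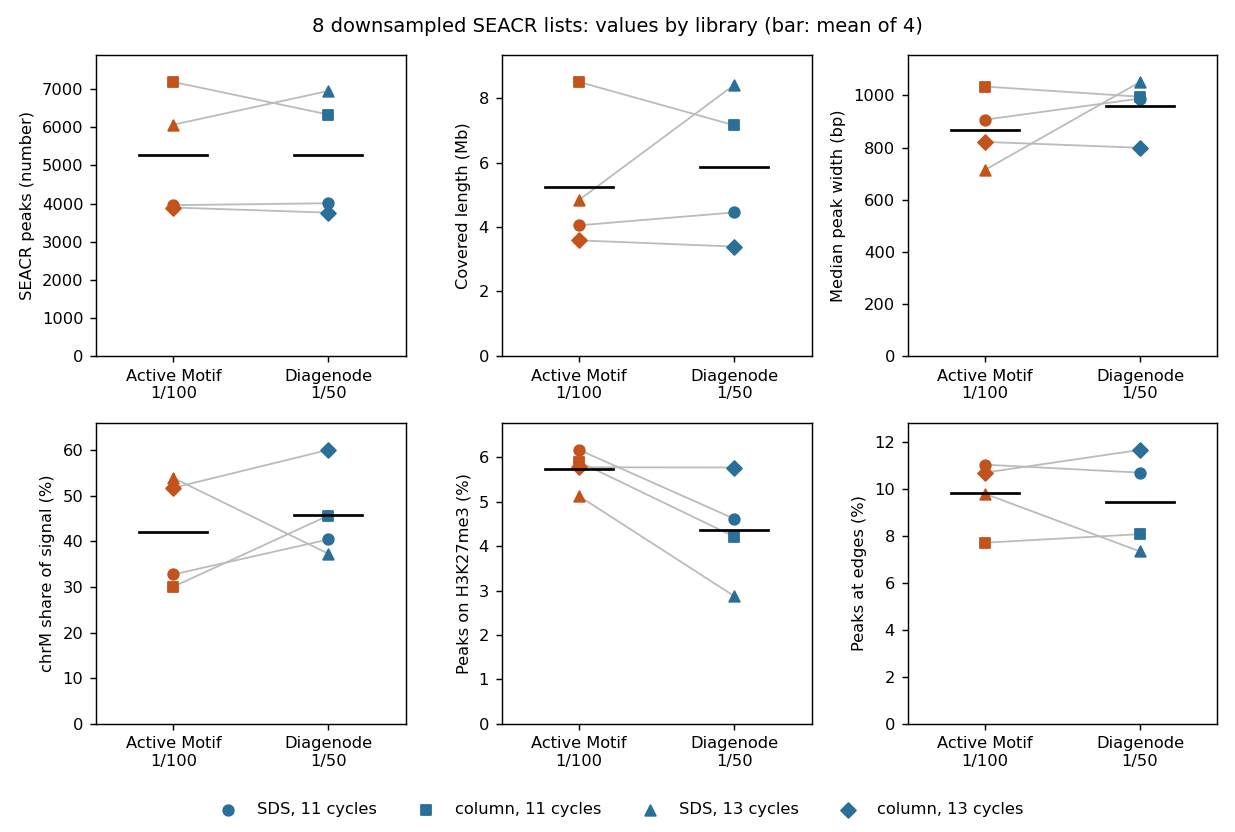
Values of the 8 downsampled SEACR lists, with Active Motif 1/100 at the left of each panel and Diagenode 1/50 at the right; panels give the number of peaks, covered length in Mb, median peak width in bp, chrM share of signal, share of peaks on H3K27me3 regions and share of peaks at edges, the last 3 in percent. Marker shapes give extraction and cycle number, grey lines join libraries made by the same protocol, and black bars are means of 4. The antibodies overlap in every panel, and the H3K27me3 panel is the one in which no line rises from Active Motif to Diagenode.

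Base by base, lists of one antibody and lists of different antibodies overlapped to a similar mean extent. The Jaccard index, the bases covered by both lists over the bases covered by either, averaged 0.229 over the 12 pairs within an antibody and 0.231 over the 16 pairs between antibodies. It was 0.222 ± 0.018 (SD, 6 pairs) within Active Motif and 0.236 ± 0.050 (SD, 6 pairs) within Diagenode. Between antibodies it was 0.251 ± 0.052 (SD, 4 pairs) for lists made by the same protocol and 0.224 ± 0.040 (SD, 12 pairs) for lists made by different ones. The within minus between difference was -0.0020 (exact permutation test over the 35 splits of 8 lists, one-sided, p = 0.486). No pair within an antibody shares a protocol, while 4 of the pairs between antibodies do, and the test does not take this into account. With those 4 left out, the mean within antibodies, 0.229, lay above that between them, 0.224. The Active Motif list from column extraction at 11 cycles had an index of 0.320 with the Diagenode list of the same protocol and 0.322 with the Diagenode SDS list at 13 cycles, against 0.200 to 0.248 with the other Active Motif lists. Pairs share libraries, so the SDs describe the pairs and are not errors of independent values.

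Single peaks behaved as the lists did. For each list, its peaks were looked up in the 3 lists of the same antibody and in the 3 lists of the other antibody made by the other 3 protocols, so that neither side had the same protocol as the list itself. Active Motif peaks were found in at least 1 of the 3 Active Motif lists in 72.4% of cases on average and in at least 1 of the 3 Diagenode lists in 73.5% of cases. The own minus other difference was -1.13 ± 4.31 percentage points (SD, n = 4), and was above 0 in 2 of 4 lists. Diagenode peaks were found in Diagenode lists in 75.5% of cases and in Active Motif lists in 72.6%, a difference of 2.96 ± 4.16 points (SD, n = 4) that was above 0 in 3 of 4 lists.

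Recovery followed signal far more than antibody. When each list was cut into 5 equal groups by total signal, Active Motif peaks of the weakest group were found in 52.9% of cases with Active Motif and 55.1% with Diagenode, and those of the strongest group in 95.1% and 95.4%. Diagenode peaks of the weakest group were found in 57.4% of cases with Diagenode and 52.5% with Active Motif, and those of the strongest group in 96.3% and 95.6%.

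Most regions that recurred with one antibody had a counterpart with the other. Of the 2585 regions in at least 3 Active Motif lists, 96.3% were in at least 1 Diagenode list (95% Wilson interval 95.5 to 96.98), which leaves 3.68% as Active Motif only. Of the 2731 regions in at least 3 Diagenode lists, 95.7% were in at least 1 Active Motif list (94.9 to 96.4), which leaves 4.32% as Diagenode only. All 8 lists held 626 regions, 4.43% of the total, and 5965 regions, 42.2%, were in a single list. Regions in all 4 lists of one antibody and none of the other numbered 12 for Active Motif, 0.0849% of all regions, and 18 for Diagenode, 0.127%. These intervals, and those below, cover counting error alone: they treat regions as independent, although all regions come from the same few libraries. The reads had no molecular identifiers and are not independent molecules, and the read depth behind each list is unknown.

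**Figure D2:**
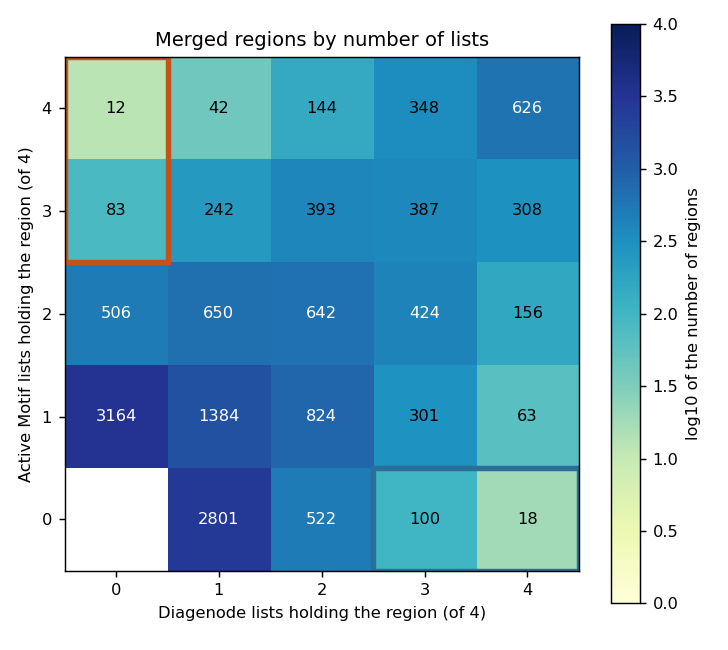
Number of merged regions by how many of the 4 Active Motif lists (vertical axis) and how many of the 4 Diagenode lists (horizontal axis) hold them, with colour on a log10 scale. The outlined cells are the Active Motif only regions at the upper left, 12 and 83, and the Diagenode only regions at the lower right, 100 and 18; the cell for all 8 lists holds 626.

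The counts of antibody-only regions moved by more than 1.5 times when single lists were left out, large or small. Without the Active Motif column list at 11 cycles the count was 21 Active Motif only and 338 Diagenode only regions. These were 0.16% and 2.57% of all regions of that run. Without the Diagenode SDS list at 13 cycles the count was 245 Active Motif only and 29 Diagenode only regions (1.83% and 0.216%). Leaving out another Active Motif list gave 38 and 151 (SDS at 11 cycles), 26 and 192 (SDS at 13 cycles) and 46 and 159 (column at 13 cycles). The shares were 0.199% to 0.336% for Active Motif only and 1.09% to 1.47% for Diagenode only regions. Leaving out another Diagenode list gave 124 and 56 (SDS at 11 cycles), 185 and 29 (column at 11 cycles) and 112 and 59 (column at 13 cycles). Here the shares were 0.823% to 1.38% and 0.216% to 0.434%. These runs change the rule as well as the lists: with 3 lists of an antibody left, a region had to be in all of them, and the other antibody had 1 list fewer to be absent from. That fixes the direction of each shift by construction, so these values say nothing about which antibody has more such regions. Within one factor, a region had to be in both lists of one antibody and neither of the other. There were then 255 Active Motif only and 514 Diagenode only regions within SDS (2.35% and 4.74% of all regions of that run). Within column there were 349 and 230 (3.12% and 2.06%). The counts were 390 and 251 within 11 cycles (3.67% and 2.36%) and 229 and 466 within 13 cycles (2.05% and 4.18%).

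Among members that were in 3 of 4 lists, the absent list was mostly a small one. Of the 83 Active Motif only regions of this kind, 26 lacked the SDS list at 11 cycles and 35 the column list at 13 cycles, the lists of 3957 and 3896 peaks. Only 8 lacked the column list at 11 cycles and 14 the SDS list at 13 cycles. Of the 100 such Diagenode only regions, 37 lacked the SDS list at 11 cycles, 41 the column list at 13 cycles, and 11 each of the other lists.

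The members were narrow and weak next to shared regions. Median width was 1249 bp for Active Motif only regions, with a range of 571 to 2814 bp, and 1380 bp for Diagenode only regions, with a range of 694 to 2840 bp, against 2294 bp for shared regions. Regions in 1 or 2 lists of one antibody alone were narrower still, at 805 bp for Active Motif and 895 bp for Diagenode. A merged region widens with the number of lists it is merged from, and these widths come from the lists that chose the members, so they are given as a description. Peak width inside a region within a single list avoids merging across lists. Where a list had several peaks in a region their widths were added up, which can still raise the values of wide shared regions. The median in the 4 lists was 799, 935, 651 and 745 bp for Active Motif only regions, where shared regions had 1109, 1544, 982 and 998 bp. It was 903, 906, 963 and 796 bp for Diagenode only regions, where shared ones had 1217, 1391, 1540 and 973 bp.

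The maximum signal of a SEACR peak is the height of its pileup in fragments, as deposited and not scaled. Its median within members was 5, 5, 5 and 4 in the Active Motif lists and 4, 5, 6 and 4 in the Diagenode lists, and no member exceeded 12 in an Active Motif list or 14 in a Diagenode list. By total signal the median member stood at the rank percentile 37.9 of the Active Motif lists and 37.8 of the Diagenode lists, where shared regions stood at 69.6 and 69.95. Members had to be absent from all lists of the other antibody, and recovery rose with signal. The rule therefore partly sets these ranks and heights, which are a description. In each list a region took the rank of its strongest peak, which favours wide regions with several peaks. The lowest and highest percentiles of a member within a single list were 0.0266 and 94.03.

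**Figure D3:**
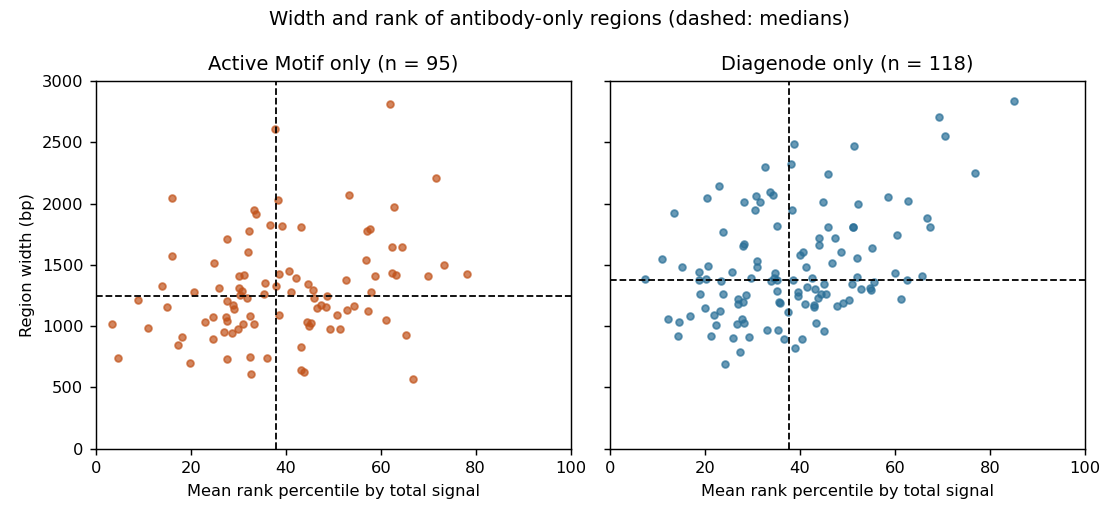
Width in bp (vertical axis) against mean rank percentile by total signal within the region's own lists (horizontal axis, 100 is the strongest) for the 95 Active Motif only regions (left) and the 118 Diagenode only regions (right). Each point is a region and dashed lines are medians, at 37.9 and 1249 bp for Active Motif only and 37.8 and 1380 bp for Diagenode only; 78.2 is the highest mean percentile among Active Motif only regions in all 4 lists.

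Just inside and just outside the threshold, widths rose with the number of lists, and rank percentiles differed little unless the other antibody also had the region. The 83 regions in 3 Active Motif lists and no Diagenode list had a median width of 1211 bp and a median rank percentile of 36.1. The 506 regions in 2 Active Motif lists and no Diagenode list, just outside, had 1090.5 bp and 37.0, and the 242 in 3 Active Motif lists and 1 Diagenode list had 1507 bp and 47.8. For Diagenode the 100 regions in 3 lists and no Active Motif list had 1374 bp and 36.3. The 522 in 2 lists and no Active Motif list had 1162 bp and 35.1, and the 301 in 3 lists and 1 Active Motif list had 1630 bp and 45.1.

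The strongest Active Motif only region by mean rank percentile, among the 12 in all 4 lists, was chr20:44717756-44719179, of 1424 bp. It had heights of 7, 12, 8 and 7 and total signals of 3264, 4268, 2973 and 2017 in the SDS and column lists at 11 cycles and the SDS and column lists at 13 cycles, and no peak in any Diagenode list. It stood at percentiles 65.8 to 86.8 of those lists. It was also in 0 of the 17 other H3K27ac SEACR lists, which include the 15-cycle Active Motif list and 4 lists from cells treated with the deacetylase inhibitor trichostatin A, and in 1 of 5 H3K27ac MACS2 lists, that of ab4729. No other named member was so isolated.

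The next by rank were chr11:321367-322866, with heights of 7, 5, 4 and 5, and chr17:7231661-7233871, with heights of 5, 5, 7 and 4. The region on chromosome 17 was the widest of the 12, at 2211 bp. The one on chromosome 11 lay 0.197 kb from a shared region and the one on chromosome 17 lay 252 kb from one. Both were in the 15-cycle Active Motif list, and chr11:321367-322866 was in the Diagenode 1/50 list at 15 cycles as well. Chromosome 19 regions took 3 of the first 7 places, chr19:18653808-18655454, chr19:41339118-41340415 and chr19:46194835-46196175, with heights of 3 to 7. All of them were in the Diagenode lists at 15 cycles, at 1/50 and at 1/100. The shortest of the 10 was chr5:69140515-69141144, of 630 bp and heights 4, 8, 9 and 5, which was in 12 of the 17 other H3K27ac SEACR lists. The region chr9:100955038-100956126, with heights of 7, 4, 5 and 4, was in 3 of the 17 and in neither Diagenode list at 15 cycles.

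The strongest Diagenode only region among the 18 in all 4 lists was chr12:118497979-118500526, of 2548 bp. Its heights were 4, 5, 7 and 5 and its total signals 2091, 3828, 6213 and 2840 in the same order of protocols, with no peak in any Active Motif list. It lay 1500 kb from the nearest shared region and was in 14 of the 17 other H3K27ac SEACR lists. The second, chr11:32454202-32456909, was the widest of the 18 at 2708 bp. Its heights were 5, 8, 14 and 5, and the 14 was the highest of any member, yet its total signal in the SDS list at 11 cycles stood at percentile 1.75. It was in 16 of the 17 lists, the 15-cycle Active Motif list among them. Next came chr18:28680478-28682501, with heights of 3, 6, 5 and 4, in 16 of the 17, and chr5:1632556-1634606, with heights of 4, 5, 8 and 3, in 11 of the 17. All 10 named by rank were in the Diagenode 1/50 list at 15 cycles.

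The 5 strongest regions present in all 8 lists had signals of another order, unlike most of the 626. Over all 626 the median height was 7.25 with Active Motif and 7.75 with Diagenode, against 4.67 for Active Motif only and 5 for Diagenode only regions. The strongest was chr5:10001-12192, with heights of 1071, 478, 584 and 407 in the Active Motif lists and 959, 383, 470 and 269 in the Diagenode lists. It was followed by chr1:564447-570304, chr1:121482686-121485434, chr19:27731783-27740616 and chrX:155259499-155260470. All 5 lay within 1 Mb of a chromosome end or of the longest span without a peak on their chromosome, and all 5 overlapped H3K27me3 regions. Sequence next to chromosome ends and assembly gaps is repeat-rich, and repeats were not excluded here. On some chromosomes, 4, 8 and X among them, the longest span without a peak is not at the centromere. The edge share is therefore not a measure of centromere flanks.

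By location, members were not gathered at such edges. Of the Active Motif only regions 4 of 95 (4.21%, 95% Wilson interval 1.65 to 10.3) and of the Diagenode only regions 8 of 118 (6.78%, 3.48 to 12.8) lay within 1 Mb of an edge, against 9.59% of shared regions and 8.16% of all regions. For whole lists the edge share averaged 9.82% ± 1.49 with Active Motif and 9.45% ± 2.07 with Diagenode (SD, n = 4 each; exact permutation p = 0.886, adjusted p = 0.971). The median distance from a member to the nearest shared region was 188 kb for Active Motif only and 322 kb for Diagenode only regions. For all regions this median was 229 kb. Regions in 1 or 2 lists of a single antibody had 214 kb for Active Motif and 323 kb for Diagenode, so the contrast is not particular to members. Within 10 kb of a shared region lay 13 Active Motif only regions (13.7%) and 8 Diagenode only regions (6.78%), against 11.9% of all regions.

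Chromosome 19, a small and gene-dense chromosome, held 19 of the 95 Active Motif only regions (20.0%, 95% Wilson interval 13.2 to 29.1) and 3 of the 118 Diagenode only regions (2.54%, 0.868 to 7.21). It held 6.05% of shared regions and 6.63% of all regions. The 19 regions were not 1 cluster, since they began between 1.27 and 55.5 Mb and fell in 7 bins of 5 Mb. None of the 19 overlapped an H3K27me3 region of the set used here, and none lay at an edge. The chromosome was singled out after these counts were seen.

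The whole lists leaned the same way, without passing the test. Chromosome 19 held 8.14%, 7.16%, 8.65% and 6.26% of peaks in the Active Motif lists and 6.26%, 5.45%, 6.44% and 4.81% in the Diagenode lists. Active Motif was higher in 4 of 4 matched pairs, and the ranges overlapped between 6.26% and 6.44%. The means were 7.55% ± 1.06 and 5.74% ± 0.76 (SD, n = 4 each), a difference of 1.81 percentage points (exact permutation p = 0.0571, adjusted over 23 chromosomes p = 0.263). The lists were also those that chose the members, so this is not independent of the counts above. In all, 9 of the 23 chromosomes had one sign in 4 of 4 pairs: chromosomes 9, 16, 19 and 22 were higher with Active Motif and chromosomes 2, 3, 7, 8 and 12 lower. Chromosome 22 differed by 0.75 points and chromosome 2 by -0.61 points (exact permutation p = 0.0571 and adjusted p = 0.263 for each). Chromosomes 3 and 8 had differences of -0.87 and -0.55 points, each at the smallest p the exact permutation test allows, 0.0286, and at 0.263 after adjustment. Of the 23 chromosomes, 2 had an unadjusted p under 0.05 and 0 (0%) an adjusted one.

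**Figure D4:**
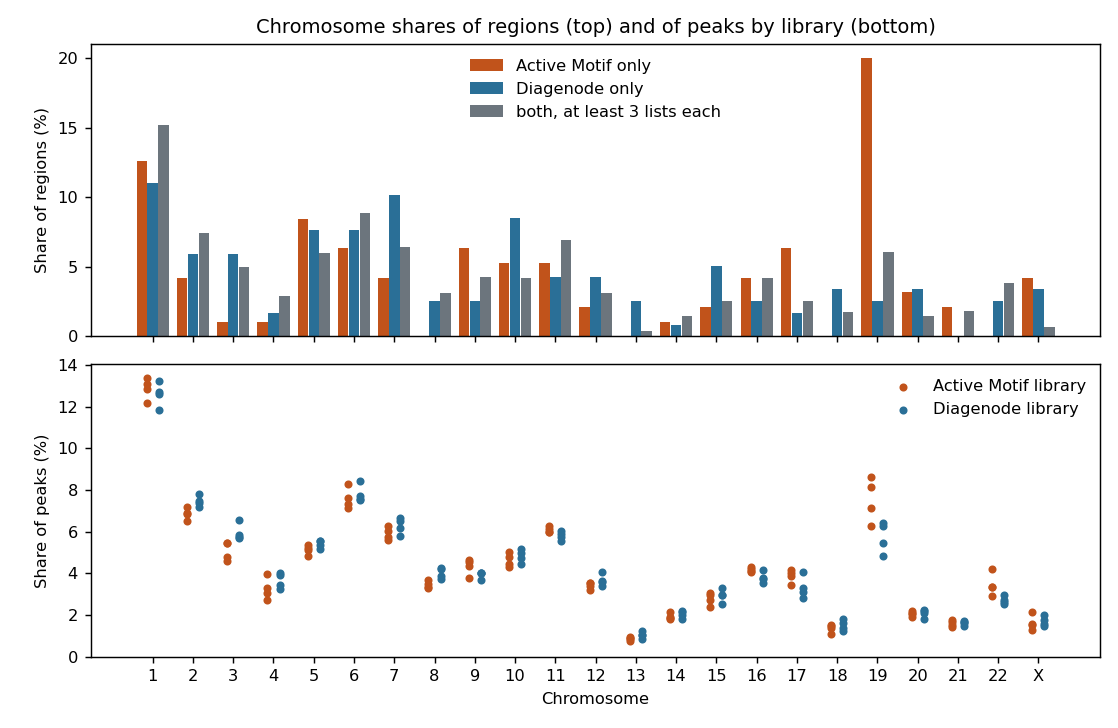
Top, percent of Active Motif only, Diagenode only and shared regions on each chromosome; bottom, percent of peaks on each chromosome in each of the 4 Active Motif and 4 Diagenode libraries, 1 point per library. The Active Motif only bar at chromosome 19, 20.0%, is the highest bar of the top panel, and the Active Motif points at chromosome 19 lie mostly above the Diagenode points.

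Overlap with H3K27me3 had the smallest p of the 7 tests between the antibodies, again without passing the threshold. H3K27me3 regions were those in at least 3 of the 4 downsampled lists of the antibody CST9733. They held 6.17%, 5.90%, 5.12% and 5.78% of Active Motif peaks and 4.62%, 4.21%, 2.88% and 5.77% of Diagenode peaks. The means were 5.74% ± 0.44 and 4.37% ± 1.19 (SD, n = 4 each), a difference of 1.37 percentage points (exact permutation p = 0.0571, adjusted p = 0.40). Active Motif was higher in 4 of 4 pairs, but with column extraction at 13 cycles the shares were nearly equal, at 5.78% and 5.77%. The difference was 1.90 points within SDS, 0.84 within column, 1.62 within 11 cycles and 1.13 within 13 cycles. Each of these is a mean over some of the same 4 pairs, so its sign was fixed by them and adds no support.

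The CST9733 list from column extraction at 11 cycles stood apart from the other H3K27me3 lists, since 40.6% of shared H3K27ac regions overlapped it, against 7.01% to 10.2% for the other 3 lists. With regions required in those 3 lists and that list left out, the difference between the antibodies was 1.03 points, from 4.16% with Active Motif and 3.13% with Diagenode (exact permutation p = 0.114). By signal, the difference was not confined to weak peaks: it was 1.55 points in the weakest of 5 equal groups, from 3.54% ± 2.21 and 1.99% ± 0.97, and 2.20 points in the strongest, from 14.7% ± 3.90 and 12.5% ± 4.39 (SD, n = 4 each). None of the 5 groups passed the exact permutation test (adjusted p from 0.321 to 0.457). The highest share among weak peaks, 6.61%, was that of the Active Motif column list at 11 cycles.

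The H3K27me3 regions held 2 of the 95 Active Motif only regions (2.11%, 95% Wilson interval 0.579 to 7.35), both on chromosome 5, and 0 of the 118 Diagenode only regions (upper Wilson bound 3.15%), where 3 counts, the limit taken for a count of 0, would be 2.54%. They held 6.59% of shared regions and 4.12% of all regions. Among regions in 1 or 2 lists of a single antibody the share was 7.47% for Active Motif (6.66 to 8.36) and 2.14% for Diagenode (1.70 to 2.69). The H3K27me3 list at 15 cycles held 10.5% of Active Motif only regions, 3.39% of Diagenode only regions and 267 of the 1669 shared regions. The downsampled column list at 11 cycles, which stands apart, had the opposite order, with 7 of the 95 Active Motif only regions (7.37%, 3.61 to 14.4) and 15 of the 118 Diagenode only regions (12.7%, 7.86 to 19.9). Both shares were below the 15.1% of all regions and 40.6% of shared regions in that list.

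A further location feature moved with this result. Chromosome 22 from 19 to 24 Mb and chromosome 9 from 133 to 134 Mb are stretches crowded with peaks (60 or more per 1 Mb bin with the antibody ab177178, SDS, 11 cycles), at the places where K562 carries amplified DNA around its BCR-ABL1 fusion. They held 2.32%, 3.12%, 3.28% and 2.26% of Active Motif peaks and 1.90%, 2.27%, 1.74% and 2.05% of Diagenode peaks, higher with Active Motif in 4 of 4 pairs (difference 0.76 points, exact permutation p = 0.0571, chosen after the values were seen). They held 0 of the 95 Active Motif only regions, where the same limit of 3 counts is 3.16%, and 2 of the 118 Diagenode only regions (1.69%). The same stretches held 3.24% of shared regions and 2.65% of all regions. They held 5.26% of regions in 1 or 2 Active Motif lists alone and 1.78% of those in 1 or 2 Diagenode lists alone. Without peaks in these stretches the H3K27me3 difference was 1.04 points (exact permutation p = 0.229), and without peaks at edges it was 1.11 points (exact permutation p = 0.0857).

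Lists that the rule did not use were then searched for the members. At 15 cycles with SDS the Active Motif list held 3024 peaks, the Diagenode 1/50 list 11844 and the Diagenode 1/100 list 7834. The labels do not describe these lists as downsampled. The Active Motif list held 23 of the 95 Active Motif only regions (24.2%, 95% Wilson interval 16.7 to 33.7) and 16 of the 118 Diagenode only regions (13.6%, 8.52 to 20.9), against 59.2% of shared regions. It held 6.10% of regions in 1 or 2 Active Motif lists alone and 4.15% of regions in 1 or 2 Diagenode lists alone. The intervals of the first 2 shares overlap.

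The Diagenode 1/50 list at 15 cycles held most members of both kinds. It held 80 of the 95 Active Motif only regions (84.2%, 75.6 to 90.2) and 116 of the 118 Diagenode only regions (98.3%, 94.0 to 99.5), against 99.8% of shared regions. It held 51.0% of regions in 1 or 2 Active Motif lists alone and 61.2% of those in 1 or 2 Diagenode lists alone. At 1/100, the dilution at which the Active Motif antibody was used, the Diagenode list held 58.9% (48.9 to 68.3) of Active Motif only and 74.6% (66.0 to 81.6) of Diagenode only regions. By MACS2, another caller, the Diagenode 1/50 list (21137 peaks) held 94.7% and 97.5% of them and the Active Motif list (2306 peaks) 15.8% and 9.32%. Of shared regions these MACS2 lists held 99.6% and 44.0%. Of regions in 1 or 2 Active Motif lists alone and in 1 or 2 Diagenode lists alone, the Diagenode 1/50 MACS2 list held 54.1% and 65.7%, and the Active Motif one 4.01% and 2.23%. Counting both dilutions and both callers, 91 of the 95 Active Motif only regions had a Diagenode peak at 15 cycles, and 19 of the 118 Diagenode only regions had an Active Motif peak. These counts are not on equal terms, since the Diagenode lists held 7626 to 21137 peaks and the Active Motif lists 3024 and 2306. The share of other regions in the combined lists is not given here. Each list is a single library, so these shares have no replicate check.

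The downsampled lists of the other H3K27ac antibodies, ab4729 and ab177178, held Diagenode only regions more often than Active Motif only regions. In the 4 downsampled lists of ab4729 the shares were 36.1% ± 12.3 of Active Motif only and 50.4% ± 6.2 of Diagenode only regions (SD, n = 4 lists), and in those of ab177178 30.8% ± 7.5 and 62.5% ± 6.4. Diagenode only regions had the higher share in 4 of 4 lists of each antibody. The order was not particular to members, since regions in 1 or 2 Diagenode lists alone also exceeded those in 1 or 2 Active Motif lists alone in each list. In ab4729 lists these shares were 14.3% to 22.8% against 8.09% to 16.3%, and in ab177178 lists 20.4% to 30.7% against 18.1% to 24.9%. Shared regions were in 86.3% ± 6.0 and 85.5% ± 3.5 of cases. The gap, Active Motif only minus Diagenode only, was -14.4 ± 7.3 percentage points in ab4729 lists and -31.7 ± 3.3 points in ab177178 lists. At 15 cycles this order did not hold in every list. The ab177178 list from cells treated with trichostatin A held 50.5% of Active Motif only and 38.1% of Diagenode only regions, and the untreated ab4729 list by MACS2 held 98.9% and 97.5%. Of the 95 Active Motif only regions, 93 were in at least 1 untreated SEACR list of ab4729 or ab177178. So were 118 of the 118 Diagenode only regions. These counts pool lists, and the pooled share of other regions is not given here. The lowest single-list shares were 23.2% (ab177178, column, 11 cycles) and 44.9% (ab4729, column, 13 cycles). The untreated 15-cycle ab4729 SEACR list by itself held 92.6% and 96.6%. It held 98.3% of shared regions, and 60.8% and 69.7% of regions in 1 or 2 Active Motif or Diagenode lists alone.

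**Figure D5:**
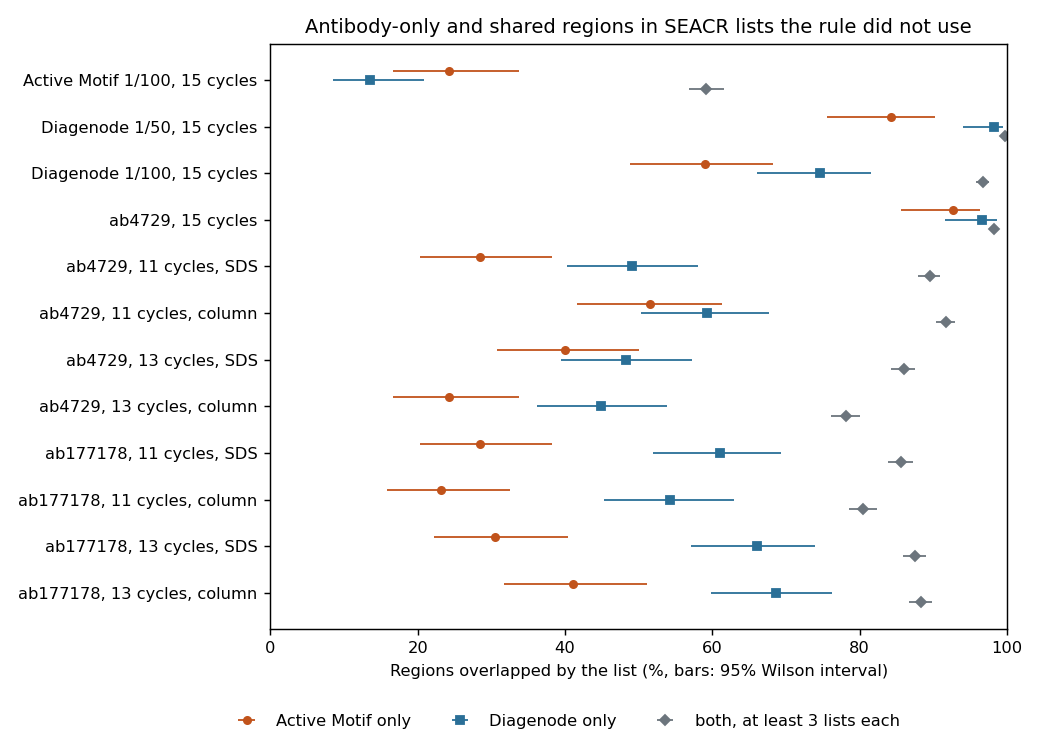
Percent of Active Motif only, Diagenode only and shared regions overlapped by each of 12 SEACR lists that did not choose them, with 95% Wilson intervals as horizontal bars. Diagenode only regions lie right of Active Motif only regions in each list but that of Active Motif at 15 cycles, where the shares are 13.6% and 24.2%; shared regions lie furthest right in all 12.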

How the data were processed

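Per the submitters' processing notes, the build was hg19, SEACR and MACS2 were among the tools, and the others were Bowtie2 2.2.9, Trim Galore 0.6.6, SAMtools 1.3.1, Picard 2.6.0, bcl2fastq and bedtools 2.25.0. No role is stated for them. Peaks were called per library without duplicates, and, per the labels, reads of the 11- and 13-cycle libraries were first downsampled to equal depth. SEACR's mode, its threshold and each library's depth: not given in the sources used here. Deposited SEACR lists give total and maximum signal per peak, in whole unscaled numbers, used only within a list. The deposited MACS2 lists give a −log10 q-value, and only their coordinates were used.

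Peaks outside chromosomes 1 to 22 and X, 2.23% to 5.67% of a list, were left out except for the chrM share. Presence was an overlap of at least 1 bp. Antibodies were compared by exact permutation of the 8 libraries, with Benjamini-Hochberg adjustment over 7 tests. Chromosome ends and peak-free spans came from all deposited lists. The members, windows and lists were chosen with earlier results of these data known. Named regions are the 10 of highest mean rank percentile and the 3 widest among those in all 4 lists of one antibody and none of the other, and the 5 highest in all 8 lists. Only some are printed. Genes were not assigned, since the annotation in hand is on another build. Alternatives covered pairing by protocol, each library left out, sequences kept, thresholds, overlap, merging and list size. The code was tested on simulated data and against bedtools 2.31.1, with Python 3.11.15, numpy 2.4.6, scipy 1.17.1 and matplotlib 3.10.9.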

Additional observations from a re-analysis of the deposited data

Results flagged for a closer look

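Differences between the antibodies pointed in opposite directions with SDS and with column extraction in both matched pairs of each. Active Motif minus Diagenode was -0.11 on the log2 scale for peak number with SDS and 0.12 with column, and -0.47 and 0.16 for covered length. Median peak width differed by -0.34 with SDS and 0.05 with column on the log2 scale. The edge share differed by 1.398 percentage points with SDS and -0.67 with column. With 2 pairs per extraction these reversals were not tested.

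The gap in recovery between Active Motif only and Diagenode only regions was wider in lists of ab177178 than in lists of ab4729, by -17.3 percentage points (exact permutation test over lists, two-sided, p = 0.0286, the smallest it can give, n = 4 each). It rests on the same 95 and 118 regions in every list, and on an overlap of 1 bp. With 50% of the region covered, the ab177178 SDS list at 11 cycles held 25.3% of Active Motif only and 41.5% of Diagenode only regions. The ab4729 list of that protocol held 22.1% and 41.5%, a wider gap, while the other protocols kept the order. That setting was not tested. The ab177178 lists were also larger, with 8149 to 10768 peaks against 4665 to 6636 for ab4729.

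Peaks on unplaced and alternative contigs, outside the sequences compared, numbered 105 to 189 per list and 1136 in all. Of the 20 sets of 4 values examined for a sample far from the others, 0 had one, where chance gives about 1 in 20.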

How the results depend on the processing

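Pairing the libraries by protocol as replicate blocks changed no call, since the mean differences stay the same and 4 pairs cannot give an exact p under 0.05: the paired differences were 0.0046 (log2) for peak number, -0.15 for covered length, -0.15 for median width, -3.74 points for the chrM share, 1.37 for H3K27me3 overlap, 0.37 for the edge share and 1.81 for the chromosome 19 share. Leaving out 1 library turned the sign of peak number (-0.16 to 0.16), covered length (-0.41 to 0.054), chrM share (-7.67 to 0.99), edge share (-0.34 to 1.11) and the Jaccard difference (-0.0059 to 0.012), none of which passed the test. With lists cut to equal size the Jaccard difference was 0.0017. The cause was not tested. Direction held in all alternatives run for median width (-0.23 to -0.06 with 1 library out), H3K27me3 overlap (0.87 to 1.84; exact p from 0.0571 to 0.543 over all 17 alternatives), chromosome 19 share (1.45 to 2.24) and the dense stretches (0.58 to 0.92). With 4 libraries against 3 the smallest exact p is 0.0571, so these runs cannot pass.

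Counts of antibody-only regions moved most. Leaving out 1 library gave 21 to 245 Active Motif only and 29 to 338 Diagenode only regions. These were 0.16% to 1.83% and 0.216% to 2.57% of all regions of a run. It also tightens the rule for one antibody and loosens it for the other. Presence in all 4 lists gave 12 and 18 (0.0849% and 0.127%). Within SDS the counts were 255 and 514 (2.35% and 4.74%), and within column 349 and 230 (3.12% and 2.06%). Within 11 cycles they were 390 and 251 (3.67% and 2.36%), and within 13 cycles 229 and 466 (2.05% and 4.18%). Cover of 50% of the region gave 74 and 170 (0.523% and 1.2%). Equal list sizes gave 78 and 94 (0.755% and 0.91%), and merging within 1 kb 97 and 120 (0.781% and 0.966%). Recovery at 15 cycles stayed inside its intervals under both alternatives. Median peak heights per list were 4 to 6, which limits what any single list can show.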
